A study of Mus musculus with 2 samples.

Results

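Border-associated macrophages are the resident macrophages of the meninges, the perivascular spaces and the choroid plexus, outside the brain parenchyma that microglia occupy. They were picked here from droplet transcriptomes of sorted brain cells as those with UMIs of at least 3 of the 6 genes Mrc1, Pf4, Ms4a7, Cbr2, Cd163 and Folr2, with under 0.5% of their UMIs (unique molecular identifiers, counts of single captured transcripts) from P2ry12, Gpr34, Tmem119, Siglech, Fcrls and Olfml3 together, and with under 3% from S100a8 and S100a9. Barcodes were kept with 200 genes or more and mitochondrial UMIs of 10% or less, and of these 14849 cells 227 met the rule. Of these, 186 came from the Disc1 WT/WT library and 41 from the Disc1 LI/LI library.

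The study asked how loss of the scaffold protein DISC1 acts on brain phagocytes and their actin cytoskeleton. The Disc1 LI/LI mice were homozygous for the Disc1 locus impairment, an allele the study treats as equivalent to a knockout, and the Disc1 WT/WT mice were their wild-type littermates. Each library pooled the brains of 6 male mice of 23 weeks, dissociated in actinomycin D to limit transcription during handling and sorted as CD45low CD11b+ cells, and the labels call both samples microglia. With 1 library per genotype, mice of a pool cannot be separated, so the differences below have no replicate check and no test. The intervals given are 95% exact binomial (Clopper-Pearson) intervals and cover counting error only, which makes them too narrow for transcripts that were unevenly spread over cells.

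Border-associated macrophages sample blood-borne and cerebrospinal-fluid material through scavenger and lectin receptors, present antigen on MHC class II and secrete chemokines at the brain surface. They share the CSF1 receptor and the C1q genes with microglia, from which they are usually told apart by Mrc1, Pf4 or Lyve1 on one side and P2ry12, Tmem119 or Sall1 on the other. In mice they are commonly divided into a Lyve1-bearing group of low MHC class II and a group of high MHC class II.

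The library of Disc1 WT/WT held 33601957 UMIs in 7038 barcodes and that of Disc1 LI/LI 47731571 UMIs in 7834 barcodes, of which the cell filters removed 6 and 17. The chosen cells made up 2.65% of the kept Disc1 WT/WT cells (interval 2.28% to 3.05%) and 0.524% of the Disc1 LI/LI cells (0.377% to 0.711%). The other classes of cells differed widely between the libraries too. Cells of the microglia pattern made up 86.2% of the Disc1 WT/WT library and 24.9% of the Disc1 LI/LI library, whereas cells with at least 3% of their UMIs from S100a8 and S100a9, genes abundant in neutrophils, made up 1.46% and 45.5%, and cells with Ly6c2 and Ccr2, a monocyte pattern, 0.697% and 17.2%. Counted against microglia alone, the chosen cells were 2.98% (2.57% to 3.43%) and 2.06% (1.49% to 2.79%) of the sum of both kinds. These intervals overlap, which does not show that the shares are alike, and the difference was not tested. All of these are shares of cells that passed the CD45low CD11b+ gate, and a gate drawn differently in the 2 sorts cannot be told apart from a difference between the mice.

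The chosen cells carried a median of 3765 UMIs and 1578.5 genes in Disc1 WT/WT and of 4529 UMIs and 1549 genes in Disc1 LI/LI, 775998 and 203464 UMIs in all. Drawn down to 1000 UMIs a cell, they showed a median of 598.5 and 537.5 genes, with 12 and 1 shallower cells left out, against 663 and 622 genes in microglia, with 92 and 15 left out. The deeper sum of the Disc1 WT/WT cells makes their values the more precise ones. The libraries shared 12 barcodes, none of them that of a chosen cell.

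The 6 marker genes of the rule are given as a description, since they chose the cells. Mrc1, the mannose receptor CD206, stood at 2170 UMIs in 1000000 (CPM) in the summed Disc1 WT/WT cells and at 1022 CPM in the Disc1 LI/LI cells, and it was detected in 96.2% and 92.7% of them. Pf4, the chemokine platelet factor 4, stood at 2905 and 2197 CPM, and Ms4a7, a membrane-spanning protein of macrophages, at 1124 and 855 CPM. Cbr2, a carbonyl reductase, Cd163, the receptor for hemoglobin bound to haptoglobin, and Folr2, a folate receptor, were sparser, with 286, 289 and 204 CPM in Disc1 WT/WT and 241, 221 and 123 CPM in Disc1 LI/LI. In microglia none of the 6 exceeded 13.9 CPM, and in the S100a8/S100a9-high cells none exceeded 2.52 CPM. Both of these classes were limited to cells with fewer than 3 of the 6 markers, so their low levels were partly set by that choice. All 6 markers were present in both libraries, and many cells passed with the fewest allowed. Of the chosen cells, 73, 48, 41 and 24 of Disc1 WT/WT and 18, 10, 9 and 4 of Disc1 LI/LI had UMIs of 3, 4, 5 and 6 markers.

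The rule's edges were not sharp. Just outside it, 73 and 42 cells met the other limits with 2 markers, the latter more than the 41 chosen cells of that library. On the microglia limit, 25 and 2 cells lay just inside, between 0.4% and 0.5%, and 17 and 1 cells just outside, between 0.5% and 0.6%. Of the 297 and 56 cells with at least 3 markers, 109 and 9 were left out for microglia genes and 2 and 6 for S100a8 and S100a9.

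Microglia genes were lower in the chosen cells than in microglia but were not at 0. For the summed 6 genes of the rule's microglia limit, this direction was set by how both classes were chosen. These 6 are also part of the 12-gene microglia list. P2ry12, a purinergic receptor that marks homeostatic microglia, stood at 350.5 CPM in Disc1 WT/WT and 206 CPM in Disc1 LI/LI, against 3986 and 3118 CPM in microglia and 330 and 53.6 CPM in the S100a8/S100a9-high cells. Fcrls, an Fc receptor-like gene, was the least separating of the limit genes, with 1095 and 565 CPM in the chosen cells and 1724 and 1782 CPM in microglia. Sall1, the transcription factor of microglial identity, was not part of the rule and stood at 25.8 and 19.7 CPM against 321 and 227 CPM. The 12-gene microglia list summed to 7184 and 5377 CPM in the chosen cells, 34132 and 33221 CPM in microglia and 3146 and 743 CPM in the S100a8/S100a9-high cells.

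A wider set of genes set the chosen cells apart from microglia in the same library. Among the 1645 genes of at least 100 CPM in either kind of cell in both libraries, 76 (4.62%) were at least 4-fold higher in the chosen cells in both libraries and 58 (3.53%) at least 4-fold lower. The rule selected on this contrast, so these counts describe the cells and support nothing. Of 32 further genes of border macrophages, 21 reached this level, 20 were higher than in microglia in both libraries and 13 at least 4-fold, with a median log2 ratio of 4.14 and 3.84 against -0.17 and -0.26 over all genes.

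The highest ratios outside the rule belonged to a chemokine and to lectin-like receptors. Ccl8, a chemokine for monocytes and T cells, stood at 299 and 157 CPM in the chosen cells of the wild-type and Disc1 LI/LI libraries, against 0.418 and 0.246 CPM in microglia, log2 ratios of 9.48 (8.65 to 10.46) and 9.32 (7.35 to 12.43). Lyve1, the hyaluronan receptor, stood at 590 and 339 CPM against 1.05 and 0.491 CPM, log2 ratios of 9.14 and 9.43. Cd209f, a C-type lectin of the DC-SIGN family, stood at 334 and 172 CPM against 0.627 and 0.123 CPM. In the S100a8/S100a9-high cells these 3 genes reached at most 9.32 CPM, the value of Lyve1 in Disc1 WT/WT.

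Further lectins and scavenger genes followed. Mgl2 and Clec10a, the galactose-binding lectins CD301b and CD301a, stood at 387 and 339 CPM and at 245 and 108 CPM, and Cd209a at 188 and 152 CPM. F13a1, the A subunit of coagulation factor XIII, was 301-fold above microglia in Disc1 WT/WT (1050 against 3.48 CPM) and 51.4-fold in Disc1 LI/LI (423 against 8.23 CPM). In Ly6c2 Ccr2 cells F13a1 stood at 1130 and 975 CPM, near the chosen cells in Disc1 WT/WT and above them in Disc1 LI/LI. Vcam1, the adhesion molecule for integrin-bearing leukocytes, stood at 459 and 698 CPM against 8.36 and 13.8 CPM, but 1 cell held 50% of its Disc1 LI/LI UMIs. Igf1, Pltp, Aoah, Ccl7, Cd93, Cp and Wfdc17 completed the genes with the highest ratios, and the plot of both kinds of cell shows each gene's level.

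**Figure D1:**
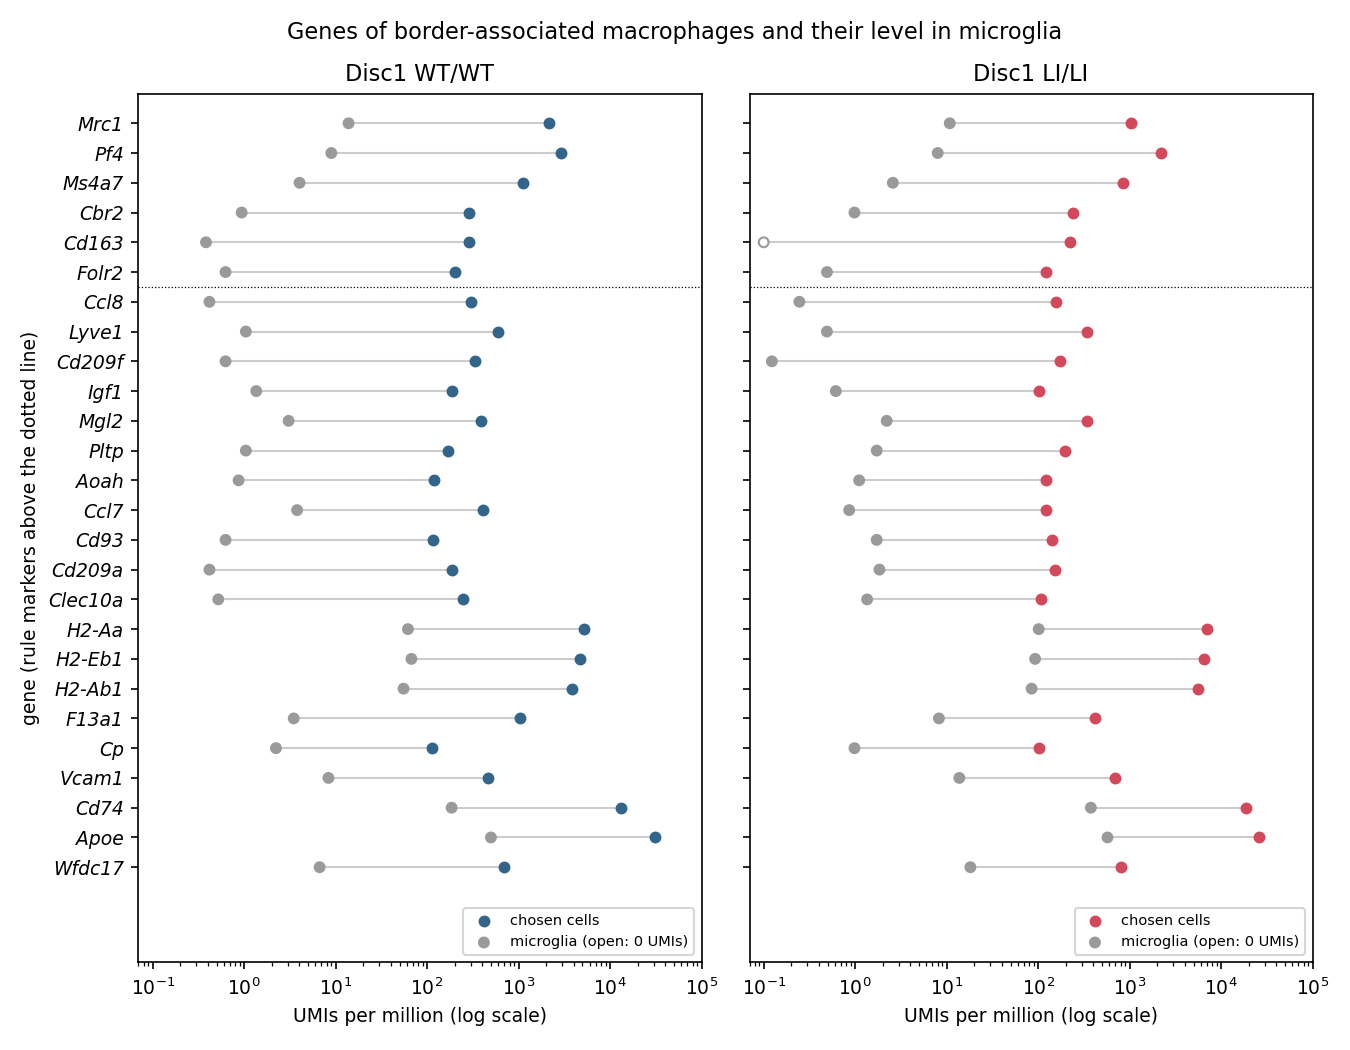
Levels of the 6 rule markers (above the dotted line) and of the 20 genes outside the rule with the highest ratio over microglia, as CPM of summed cells on a log axis, for Disc1 WT/WT (left) and Disc1 LI/LI (right); coloured points are the chosen cells and grey points microglia, open where it had 0 UMIs. Every coloured point lies to the right of its grey point in both libraries, and Apoe, Cd74 and H2-Aa reach the highest levels.

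Of the genes with the highest ratios over microglia, Apoe and the class II genes had the highest counts. Apoe, the apolipoprotein that carries lipids between brain cells, took 31318 and 25783 CPM in the chosen cells and 499 and 573 CPM in microglia, 62.7-fold and 45.0-fold less. It was detected in every chosen cell. Cd74, the invariant chain that guides MHC class II, took 13320 and 18701 CPM against 186 and 377 CPM. H2-Aa, H2-Ab1 and H2-Eb1, the chains of the class II molecules, took 5144, 3876 and 4639 CPM in Disc1 WT/WT and 7004, 5524 and 6424 CPM in Disc1 LI/LI, 65.2-fold to 83.2-fold above microglia. Ciita, the activator of class II transcription, was measured with few UMIs, 30.9 and 34.4 CPM, and was at 0.209 and 0.246 CPM in microglia. H2-DMa and H2-DMb1, which load peptides, differed less, 1.98-fold to 3.68-fold.

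Complement and receptor genes were shared with microglia to differing degrees. C1qa, C1qb and C1qc, the chains of the complement component C1q, stood at 9269, 7330 and 6312 CPM in the Disc1 WT/WT cells, with log2 ratios over microglia of -0.18, -0.30 and -0.30, and none of the 9 complement genes compared was 4-fold higher or lower. C4b, outside that comparison, stood at 138 and 49.1 CPM against 0.976 and 1.47 CPM. Csf1r, the receptor both cell types need, was at 0.587 and 0.406 of its microglial level, and Cx3cr1, the fractalkine receptor, at 0.222 and 0.220 of it. The transcription factor gene Maf was above its microglial level, with log2 ratios of 0.59 and 0.45.

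The genes with the lowest ratios against microglia were Cd34, Slc1a3, Sall1, Ecscr, Tjp1, Nav2, Gal3st4, Lrba, Plxdc2 and Adora3. Cd34, a sialomucin, stood at 10.3 and 9.83 CPM in the chosen cells against 138 and 165 CPM in microglia, and Slc1a3, a glutamate transporter, at 23.2 and 14.7 CPM against 282 and 248 CPM. Few UMIs lay behind such values, 8 and 2 for Cd34.

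The 250 bases before the RefSeq start of 4 of these genes (GRCm38.p6), written 5′ to 3′, show what their promoters hold: Ccl8 and Cd209f for their ratios over microglia, H2-Aa and H2-Eb1 as genes of MHC class II, which were both lower in the cells with a Lyve1 UMI. Capitals mark matches on either strand to GAGGAA, a core of sites for the macrophage factor PU.1, to TGCTGA, a half-site of MAF factors, and to CTGATTGG, the Y box of class II promoters, which can overlap TGCTGA and does so in H2-Eb1.
Ccl8, chr11:82114935-82115184, forward strand: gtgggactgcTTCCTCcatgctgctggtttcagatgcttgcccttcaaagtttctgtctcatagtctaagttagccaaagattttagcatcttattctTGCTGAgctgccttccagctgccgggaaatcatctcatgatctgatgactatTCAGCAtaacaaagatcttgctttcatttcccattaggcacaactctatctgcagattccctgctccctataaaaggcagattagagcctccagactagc
Cd209f, chr8:4105765-4106014, reverse strand: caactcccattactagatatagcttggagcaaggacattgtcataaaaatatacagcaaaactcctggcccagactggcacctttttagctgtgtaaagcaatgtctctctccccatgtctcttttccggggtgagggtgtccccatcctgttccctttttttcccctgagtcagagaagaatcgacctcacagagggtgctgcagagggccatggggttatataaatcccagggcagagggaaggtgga
H2-Aa, chr17:34287824-34288073, reverse strand: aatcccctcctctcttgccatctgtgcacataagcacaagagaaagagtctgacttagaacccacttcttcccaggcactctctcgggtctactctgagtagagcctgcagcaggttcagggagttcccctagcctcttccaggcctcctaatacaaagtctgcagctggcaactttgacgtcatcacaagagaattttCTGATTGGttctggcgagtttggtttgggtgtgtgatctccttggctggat
H2-Eb1, chr17:34305617-34305866, forward strand: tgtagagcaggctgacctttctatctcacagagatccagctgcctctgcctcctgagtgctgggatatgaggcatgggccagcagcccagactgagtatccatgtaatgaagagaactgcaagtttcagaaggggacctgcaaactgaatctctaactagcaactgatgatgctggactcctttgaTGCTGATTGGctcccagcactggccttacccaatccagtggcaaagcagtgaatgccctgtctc

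Ccl8 held 1 match to GAGGAA and 2 to TGCTGA, and H2-Aa and H2-Eb1 held 1 Y box each. Of 32851 promoters of this length, 23.3% held GAGGAA, 16.1% TGCTGA and 3.83% CTGATTGG. A match is a string of letters, not a bound site, and Cd209f held none of the 3 strings in this window.

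MHC class II transcripts varied widely among the chosen cells. H2-Aa, H2-Ab1, H2-Eb1 and Cd74 together took a median of 0.756% of a cell's UMIs in Disc1 WT/WT, from 0% to 12.9%, and of 1.99% in Disc1 LI/LI, from 0% to 12.7%. In Disc1 WT/WT, 90 cells were under 0.5%, 78 at 2% or more and 18 between these limits. In Disc1 LI/LI, 13 cells were under 0.5%, 20 at 2% or more and 8 between. These limits cut a range and define no cell types.

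Lyve1 ran opposite to MHC class II in both libraries. It was detected in 62 of the 186 Disc1 WT/WT cells (33.3%, 26.6% to 40.6%) and in 9 of the 41 Disc1 LI/LI cells (21.95%, 10.6% to 37.6%), against 0.396% and 0.103% of microglia, of median depth 4260.5 and 3786 UMIs, and 3.88% and 2.16% of S100a8/S100a9-high cells. The cells with a Lyve1 UMI had a median of 0.0265% and 0.0628% of their UMIs from MHC class II, and the cells without one a median of 2.98% and 4.18%. Both kinds of cell had similar depth, with medians of 4191.5 and 3654.5 UMIs in Disc1 WT/WT and 5017 and 4447.5 UMIs in Disc1 LI/LI. Thinned to 1000 UMIs a cell, Lyve1 was detected in 23.6% and 12.5% of cells, and the class II medians were 0% with it and 2.70% and 3.80% without it. The overlap was not nil: 7 Disc1 WT/WT cells and 1 Disc1 LI/LI cell with a Lyve1 UMI had 2% or more of class II UMIs.

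**Figure D2:**
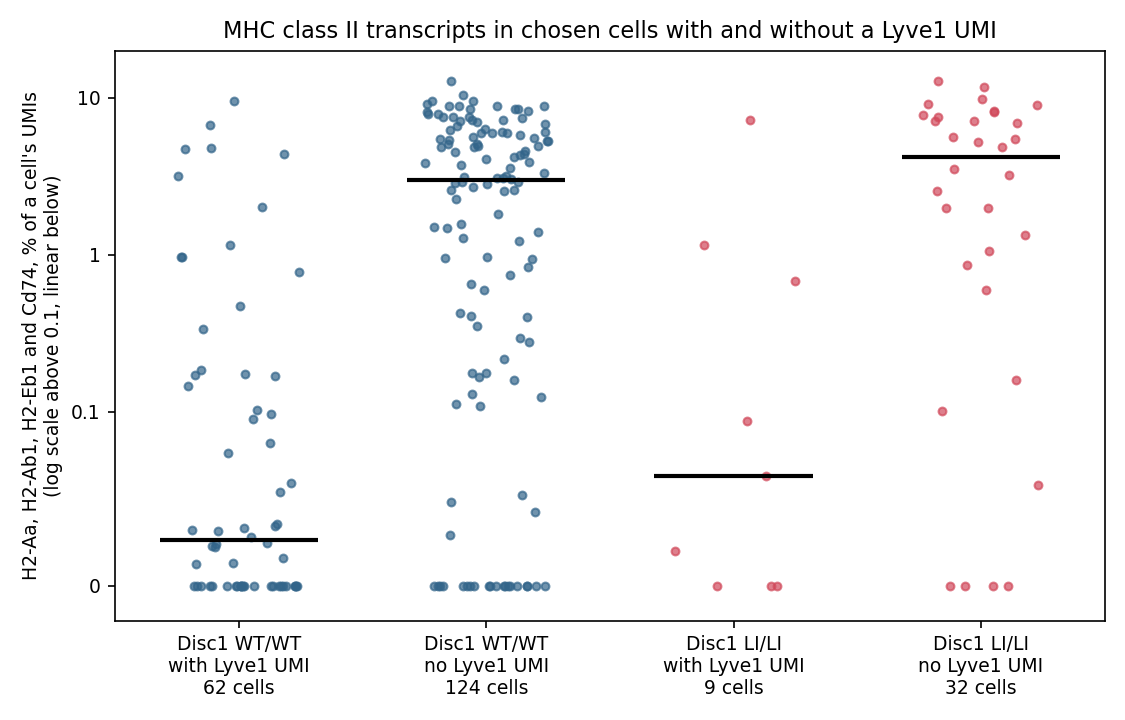
Share of each chosen cell's UMIs that came from H2-Aa, H2-Ab1, H2-Eb1 and Cd74 (percent, log scale above 0.1 and linear below), for cells with and without a Lyve1 UMI in both libraries; each point is a cell and each bar a median. The bars of the cells with a Lyve1 UMI lie under 0.1%, those of the others at 2.98% and 4.18%, and both kinds include cells at 0.

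Other genes followed one side or the other. Fcna, a ficolin that binds sugars, stood at 168 CPM in Disc1 WT/WT cells with a Lyve1 UMI and at 6.05 CPM in those without, Cd209f at 846 and 44.4 CPM, Ednrb, the endothelin B receptor, at 107 and 6.05 CPM, and Timd4, a receptor for phosphatidylserine on dying cells, at 171 and 14.1 CPM. The Disc1 LI/LI cells had the same direction for these genes, with 561 and 110 CPM for Fcna and 510 and 91.3 CPM for Cd209f. The eosinophil chemokine gene Ccl24 stood at 439 and 68.6 CPM in Disc1 WT/WT and at 510 and 30.4 CPM in Disc1 LI/LI. On the other side, Ccr2, the receptor that draws monocytes from blood, stood at 14.3 and 204 CPM in Disc1 WT/WT and at 0 and 104 CPM in Disc1 LI/LI, where the 0 is over 9 cells. H2-DMb1 followed the class II chains, with 314 and 764 CPM and 153 and 859 CPM. In Disc1 WT/WT the 6 markers of the rule were also higher in cells with a Lyve1 UMI, with Folr2 at 446 and 66.5 CPM and Mrc1 at 3581 and 1373 CPM. In Disc1 LI/LI, Folr2 stood at 357 and 67.0 CPM, but Cd163 at 229 and 219 CPM and Ms4a7 at 892 and 846 CPM had intervals that include no difference.

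The number of rule markers tracked the same division. From 3 to 6 detected markers, the class II median of the Disc1 WT/WT cells was 3.34%, 0.962%, 0.0984% and 0.0144%, and the share with a Lyve1 UMI 15.1%, 18.8%, 51.2% and 87.5%, with median depths of 3985, 3302, 3854 and 4851.5 UMIs. A stricter marker count therefore takes more of the Lyve1 side. With at least 4 markers, 45.1% and 34.8% of the cells had a Lyve1 UMI and the class II medians were 0.159% and 0.598%.

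Chemokines varied among cells beyond counting as well. In cells of both libraries together, thinned to 1000 UMIs, the variance of Ccl12 was 9.23 times that of counting alone, that of Ccl2 5.07 times and that of Ccl7 4.24 times, all 3 of them ligands that draw monocytes. Ccl12 was detected in 63 of 214 thinned cells and Ccl2 in 22. Larger ratios belonged to Malat1, a nuclear non-coding RNA (32.7), to Cst3, the protease inhibitor cystatin C (30.3), and to Apoe (11.8), and Gm42418 (8.20), which overlaps ribosomal RNA, and Lyz2, lysozyme (5.00), also exceeded counting. Within Disc1 WT/WT alone the ratio was 24.5 for Malat1, 25.4 for Cst3, 11.9 for Apoe, 8.82 for Gm42418, 7.10 for Ccl12 and 5.48 for Ccl2, so the order of neighbouring genes is not firm. Cst3 was at 22240 and 20790 CPM in the chosen cells against 67723 and 85359 CPM in microglia. Doublets with microglia were not tested.

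The genotypes were compared on the summed UMIs of the chosen cells. Of 5593 genes with at least 20 UMIs over both libraries, 91 (1.63%) were at least 2-fold higher in Disc1 LI/LI with an interval that leaves out no change, and 413 (7.38%) at least 2-fold lower, 504 (9.01%) in all. The median log2 ratio over all genes was -0.24 on this scale. Without the cells that hold at least 3 markers of T and NK cells, B and plasma cells, endothelial cells, mural cells and fibroblasts or neutrophils, which left 180 and 14 cells, the median was 0.02, with 119 genes higher and 82 lower. With neutrophil markers set aside in that step, which left 180 and 35 cells, it was -0.25, with 79 higher and 304 lower. Scaling by trimmed means (TMM) moved every log2 ratio up by 0.11 and gave 131 higher and 286 lower genes, 31.4% of the calls higher instead of 18.1%.

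Gene length moved with the ratio. In 4 equal bins of gene length, from the shortest genes to the longest, the median log2 ratio was 0.05, -0.16, -0.33 and -0.55, and in microglia the same genes had medians of 0.17, -0.03, -0.27 and -0.46. Of the 413 lower genes, 208 lay in the bin of genes from 54179 bases up and 38 in that of genes up to 9516 bases. The part of length in any single gene's ratio was not tested.

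RNA of neutrophils moved with the library too. S100a8 stood at 14.2 CPM in the chosen cells of Disc1 WT/WT and 275 CPM in those of Disc1 LI/LI, and at 16.9 and 345 CPM in microglia. Camp, a granule peptide, and Lcn2, lipocalin 2, both among the 10 named genes of highest ratio, followed the same pattern, with 7.73 and 118 CPM and 7.73 and 103 CPM in the chosen cells and 3.35 and 141 CPM and 2.54 and 117 CPM in microglia. Csf3r, the most abundant neutrophil marker in the chosen cells of Disc1 WT/WT, stood at 41.2 and 44.2 CPM, and Mmp9 at 23.2 and 9.83 CPM on 18 and 2 UMIs. The 12 neutrophil genes summed to 116 and 1189 CPM in the chosen cells, 194 and 1505 CPM in microglia and 374575 and 415261 CPM in the S100a8/S100a9-high cells, with Cxcr2 at 0 in the chosen cells of both libraries. Of the chosen cells, 0 of 186 and 27 of 41 had UMIs of at least 3 of the 12. Other lists were mixed. At least 3 T and NK cell markers were in 5 and 2 cells, and at least 3 B and plasma cell markers in 1 and 5, where the antibody gene Igkc reached 398 CPM in Disc1 LI/LI. Mast cell markers were all at 0, and the endothelial, mural and neural lists summed to at most 44.2 CPM. The 10 monocyte markers summed to 201 and 531 CPM, led by Ccr2 and Plac8, and 1 Disc1 LI/LI cell held 64.9% of its Plac8 UMIs. The 7 nonclassical monocyte markers summed to 28.4 and 68.8 CPM. The 10 dendritic cell markers summed to 1314 and 1081 CPM, near their 1473 and 1437 CPM in microglia, with Bst2 the most abundant and Xcr1 at 0 in both, and 22 and 5 cells had at least 3 of them. The near sums do not mean like levels of each gene. Siglech, a gene of the rule's microglia limit, is on this list and stood at 130 and 78.6 CPM in the chosen cells. Bst2, at 911 and 781 CPM, and Cd209a, at 188 and 152 CPM, were at least 4-fold above microglia in both libraries. Erythroid markers summed to 5.15 and 329 CPM, progenitor markers to 10.3 and 138 CPM and cycling markers to 198 and 63.9 CPM. The part of these RNAs in the ratios below was not tested, and some values are given without the cells that hold 3 markers of the T and NK, B and plasma, endothelial, mural or neutrophil lists. Cells with monocyte, dendritic, erythroid or cycling markers were not removed on that account.

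**Figure D3:**
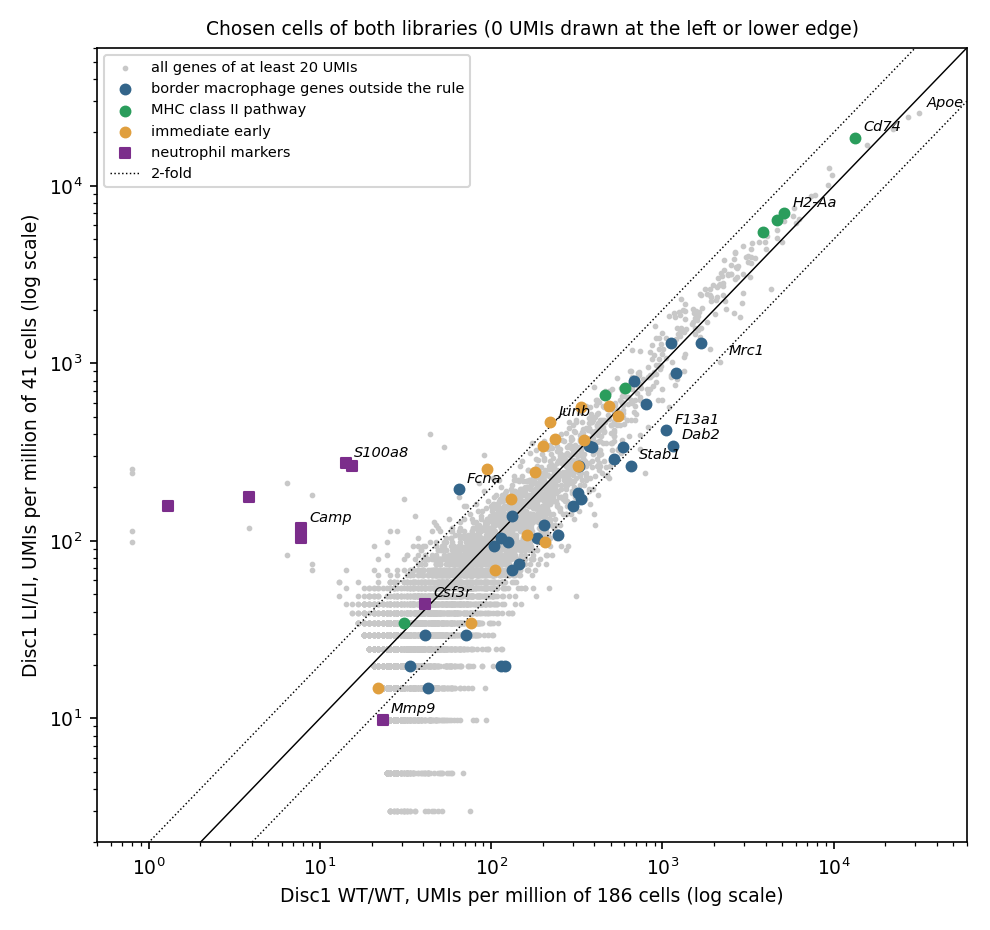
CPM of the summed chosen cells of Disc1 WT/WT (horizontal) and Disc1 LI/LI (vertical), both on log axes; grey points are all 5593 genes with at least 20 UMIs, coloured points 4 gene groups, the solid line no difference and the dotted lines 2-fold, with genes at 0 UMIs drawn at the edge. Of the 8 neutrophil markers with at least 20 UMIs, 6 lie above the upper 2-fold line and Csf3r and Mmp9 do not, Dab2, F13a1 and Stab1 lie below the lower one, and the MHC class II genes lie above the solid line.

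Genes of border macrophages outside the rule were lower in Disc1 LI/LI on balance. Of 32, all measured with at least 20 UMIs, 28 were lower and 4 higher, where 3605 of all 5593 genes were lower, with 7 past 2-fold lower, where 7.38% of all genes were, and 1 past 2-fold higher, and their median log2 ratio was -0.77 against -0.24 for all genes. Dab2, an adaptor of endocytosis, stood at 1160 and 344 CPM, a log2 ratio of -1.75 (-2.13 to -1.40). F13a1 stood at 1050 and 423 CPM, a log2 ratio of -1.31 (-1.65 to -0.99), and Stab1, a scavenger receptor for modified lipoproteins, at 655 and 265 CPM, a log2 ratio of -1.30 (-1.74 to -0.90). Dab2 was lower in Disc1 LI/LI microglia as well (log2 -1.21), while Stab1 there was nearly level (-0.05).

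The list held exceptions. Fcna was higher in Disc1 LI/LI, 64.4 and 197 CPM, but 1 of the 41 cells held 45.0% of its UMIs there. Ms4a6c was slightly higher, at 1124 and 1307 CPM. Wfdc17 and Lilra5 had log2 ratios of 0.22 and 0.07 with intervals that include no change. Of the 28 lower genes, 19 had an interval below no change, where 627 of all 5593 genes did. Mgl2 and Cp were among the lower genes whose interval includes no change. Measured against genes of like length, the list's median was -0.46. Among cells without a Lyve1 UMI it was -0.29, with Dab2 at 784 and 213 CPM and F13a1 at 631 and 371 CPM. Without the cells that hold 3 markers of another type, it was -0.18, and -0.49 with neutrophil markers set aside.

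Scavenger and endocytic receptors overlapped that list and were lower too. Of 17 measured, 16 were lower, against 3605 of all 5593 genes, and 5 past 2-fold lower, against 7.38% of all genes, with a median of -0.92, or -0.40 against genes of like length. These 5 were Dab2, Stab1, Clec10a, Colec12 and Timd4, all of them also in the border list, so they are not separate calls. The median was -0.28 without the cells that hold 3 markers of another type, -0.57 with neutrophil markers set aside and -0.53 in cells without a Lyve1 UMI. Clec10a stood at 245 and 108 CPM and Colec12, a collectin receptor, at 115 and 19.7 CPM, the latter on 89 and 4 UMIs. Axl, a receptor tyrosine kinase for dying cells, was the exception past 2-fold, 70.9 and 157 CPM, and its direction turned when cells were thinned to 1000 UMIs. Ms4a4a, of the border list, was among the 10 lowest named genes, 120 and 19.7 CPM.

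MHC class II genes were slightly higher in Disc1 LI/LI under the rule as given. All 7 measured with at least 20 UMIs were higher, 5 with intervals above no change and 0 past 2-fold, with a median of 0.47. Of all 5593 genes, 1988 were higher and 297 had an interval above no change. Cd74 had a log2 ratio of 0.49 (0.44 to 0.54), H2-Aa of 0.45 (0.36 to 0.53), H2-Ab1 of 0.51 (0.41 to 0.61) and H2-Eb1 of 0.47 (0.38 to 0.56). The spread over cells was far wider than these counting intervals, since class II took from 0% to over 12% of a cell's UMIs. The list's median ranged from 0.01 to 0.72 over the alternatives, and H2-Eb1 turned to -0.12 with at least 2 markers, to -0.04 with at least 4 and to -0.18 without cells holding 3 markers of another type. Among cells without a Lyve1 UMI, the log2 ratios were 0.26 for Cd74, 0.21 for H2-Aa, 0.29 for H2-Ab1 and 0.25 for H2-Eb1. Microglia of Disc1 LI/LI had higher values too, with log2 ratios of 1.02 for Cd74 and 0.72 for H2-Aa.

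Chemokine ligands went both ways. Ccl7 stood at 405 and 123 CPM, a log2 ratio of -1.72 (-2.37 to -1.13), and Ccl2 at 420 and 182 CPM, a log2 ratio of -1.21 (-1.74 to -0.71). Ccl8 had a log2 ratio of -0.93. Cxcl2, a chemokine for neutrophils, was higher, 52.8 and 339 CPM, but 1 Disc1 LI/LI cell held 73.9% of its UMIs. Ccl5 and Cxcl9, ligands for T cells, were higher at 90.2 and 305 CPM and at 85.1 and 211 CPM, and 1 cell held 82.3% of the Disc1 LI/LI UMIs of Ccl5 and 1 cell 86.4% of the Disc1 WT/WT UMIs of Cxcl9. Ccl12, at 1052 and 1396 CPM, had a log2 ratio of 0.41 (0.21 to 0.61), which turned to -0.36 with at least 2 markers. Ccl5 and Cxcl9 also turned direction under at least 1 alternative. Over the 13 ligands the median was -0.15, and it ranged from -0.63 to 0.41 over the alternatives.

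Of the immediate early, iron and lipid genes, 2 of 16, 1 of 12 and 3 of 13 were past 2-fold higher, against 1.63% of all genes. Past 2-fold lower were 2, 1 and 0, against 7.38%. The shares that were higher lay above that of all genes but rest on 1 to 3 genes a list. Junb and Atf3, transcription factors induced within minutes of a stimulus, stood at 222 and 467 CPM and at 94.1 and 256 CPM, log2 ratios of 1.07 and 1.44, and Fos at 336 and 570 CPM. Atf3 was detected in 7 of the 41 Disc1 LI/LI cells, and 1 cell held 38.5% of its UMIs there. Hspa1a, a heat-shock protein, and Egr1 were past 2-fold lower, and the 16 genes had a median of 0.17. The 12 iron genes had a median of 0.07 and the 13 lipid genes of 0.03. Hmox1, which breaks down heme, stood at 173 and 354 CPM, a log2 ratio of 1.04 (0.60 to 1.46), whereas Ncoa4, which carries ferritin to lysosomes, was lower at 125 and 54.1 CPM. Lpl, lipoprotein lipase, and Fabp4 and Fabp5, fatty acid binding proteins, were past 2-fold higher on 14, 23 and 20 Disc1 LI/LI UMIs, and 1 cell held 95.7% of the Disc1 LI/LI UMIs of Fabp4. Apoe itself was lower by a log2 ratio of -0.28 (-0.32 to -0.24).

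The 14 complement genes had a median of -0.16. C1qa, C1qb and C1qc had log2 ratios of 0.12 (0.05 to 0.19), 0.26 (0.18 to 0.34) and 0.04 (-0.05 to 0.12), against 0.42, 0.43 and 0.32 in microglia of the same libraries, and with at least 2 markers C1qa and C1qb turned to -0.22 and -0.11. Cd81, a tetraspanin, had 0.17 (-0.01 to 0.34). C5ar2, a receptor of the complement fragment C5a, and Cd55, which restrains complement, were at 24.5 and 44.2 CPM and at 50.3 and 39.3 CPM. Their log2 ratios of 0.85 and -0.35 rest on 9 and 8 Disc1 LI/LI UMIs, with intervals that include no change, and that of Cd55 ranged from -2.28 to 2.27 over the alternatives. Cfp, properdin, was higher at 64.4 and 177 CPM, and S100a8/S100a9-high cells held 67.1 and 79.9 CPM of it.

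Actin genes were read from the study's own choice. Actr2, which encodes ARP2 of the branch-forming ARP2/3 complex, stood at 393 and 197 CPM, a log2 ratio of -0.999 (-1.51 to -0.52), and Actr3, which encodes ARP3, at 499 and 447 CPM, -0.16 (-0.50 to 0.18). Over the 9 genes of the complex the median was -0.02, and Arpc5l alone was past 2-fold higher, 47.7 and 123 CPM. Cyfip1, of the WAVE complex that activates ARP2/3, was at 433 and 265 CPM, -0.71 (-1.15 to -0.29). Of the formin-side genes, Diaph2 and Arhgef12 were lower at 151 and 73.7 CPM and at 59.3 and 14.7 CPM, both among the longest genes. The list's median over these 2 was -1.52, or -0.97 against genes of like length. That median was -0.62 without the cells that hold 3 markers of another type and -0.13 after thinning to 1000 UMIs. Fmn1, Rhoj and Diaph3 had 11 and 2, 0 and 3, and 6 and 0 UMIs, too few to compare. Disc1 itself had 10 UMIs in the Disc1 WT/WT cells (12.9 CPM) and 0 in the Disc1 LI/LI cells, which allows up to 14.7 CPM, so the deficiency was not detectable here at this depth. In microglia it stood at 20.5 and 2.21 CPM.

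**Figure D4:**
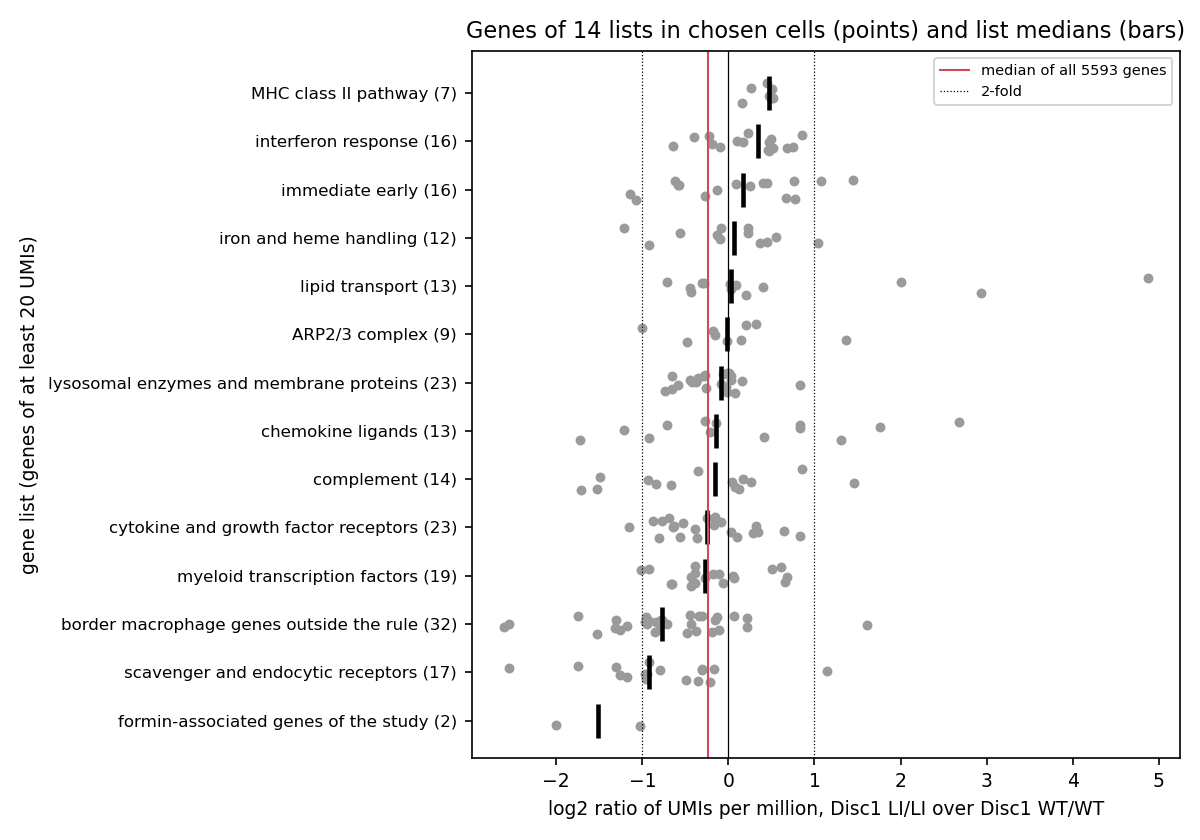
Log2 ratio of CPM, Disc1 LI/LI over Disc1 WT/WT, for the genes of 14 lists in the chosen cells (grey points; a library at 0 UMIs is set to 3 UMIs, as for Fabp4, the point furthest right) with each list's median (black bar); the red line marks the median of all 5593 genes at -0.24 and the dotted lines 2-fold. The formin-associated list, of 2 genes, lies furthest left at -1.52, the scavenger and border macrophage lists lie left of the red line at -0.92 and -0.77, and the MHC class II list lies furthest right at 0.47.

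Of the remaining lists, that of interferon-response genes lay furthest from the median of all genes. Their counts past 2-fold, 0 or 1 a list, are too small to set apart from the 1.63% of all genes that were higher and the 7.38% that were lower. The 23 lysosomal genes had a median of -0.09 with none past 2-fold, though Psap, prosaposin, had a log2 ratio of 0.83 and 1 cell held 21.0% of its Disc1 LI/LI UMIs. The 23 cytokine and growth factor receptors had -0.25, with Tgfbr1, a receptor of TGF-beta, past 2-fold lower (327 and 147 CPM). The 19 transcription factors had -0.27, with Mef2a past 2-fold lower (477 and 236 CPM), and the 16 interferon-response genes had 0.34 with none past 2-fold, a median that ranged from -0.25 to 0.51 over the alternatives. Ifitm3, an antiviral membrane protein, led that list at 1093 and 1843 CPM, and it was also abundant in S100a8/S100a9-high cells, at 1003 and 1231 CPM.

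Besides Camp, Lcn2, Junb and Arpc5l, the 10 genes with the highest ratios by the fixed rule were S100a11, Ethe1, Hcst, Frg1, Elof1 and Lgals3bp. S100a11, a calcium-binding protein, stood at 90.2 and 192 CPM, and Lgals3bp, a galectin-binding glycoprotein, at 69.6 and 157 CPM. The 10 lowest were AY036118, Ms4a4a, Samd9l, Pacsin2, Sesn1, Srrm1, Hspa4, Sbf2, Fli1 and Tnks2, at log2 ratios from -2.68 to -1.76. AY036118, a transcript next to ribosomal RNA, stood at 314 and 49.1 CPM, Srrm1, a splicing factor, at 218 and 54.1 CPM, and Fli1, an ETS transcription factor, at 133 and 39.3 CPM.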

How the data were processed

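Droplet libraries (10x Genomics) were made from 1 pooled sample per genotype. The deposited files hold whole UMI counts for each gene in each barcode, made by the authors with Cell Ranger 6.1.2 per the file headers. STAR, the build mm10 and Seurat 3.0.1 are named in the submitters' processing notes. Reads behind a UMI, and which chip and kit version served which library, are not given in the sources used here. The deposited counts were used as given, with no doublet caller and no correction for free RNA.

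The members and all gene lists were chosen with earlier results of these data known, so none of the counts over them is independent support. The microglia used for comparison were the cells outside the rule with at least 3 of P2ry12, Gpr34, Tmem119, Siglech, Fcrls and Olfml3 detected, at 0.5% or more of UMIs. They also had fewer than 3 of the rule's 6 markers and under 3% of UMIs from S100a8 and S100a9. The S100a8/S100a9-high and Ly6c2 Ccr2 cells likewise had fewer than 3 of the 6 markers, and under 0.5% from the microglia genes. Counts were summed over the cells of a class in each library and divided by their total (CPM). Ratios carry 95% Clopper-Pearson intervals on the split of counts, and a gene at 0 was set to a floor of 3 counts in the library. Genes with 20 or more UMIs over both libraries were compared between genotypes. Genes with 100 CPM or more in either class in both libraries were compared with microglia. No statistical test was run, because each genotype has 1 library. Intervals and floors cover counting error only.

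The genes named were the rule's genes, the genes the study names, the 10 highest and 10 lowest between genotypes (at least 100 CPM in 1 library, no cell with over 25% of a library's UMIs), the 20 highest and 10 lowest against microglia, the 4 most abundant of each of 14 lists with any member past 2-fold, the 8 most variable genes, and the leading gene of each of 15 marker lists. C4b, Cd34's UMIs, Ednrb and Ccl24 were picked out after their values were seen. Alternatives changed the cell filters, the markers required, the limits on microglia and S100 genes, doublet-like cells, scaling and count minimums. Results for some genes of these lists are not reported here. The scripts were tested on simulated data. Tools were Python 3.11.15 with pandas 2.3.3, numpy 2.4.6, matplotlib 3.10.9 and scipy 1.17.1, and R 4.3.3 with edgeR 4.0.16, used for its TMM factors only.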

Additional observations from a re-analysis of the deposited data

Results flagged for a closer look

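The median of the immediate early list lay on opposite sides of 0 in the 2 libraries when the chosen cells were compared with microglia. Of the 12 genes compared, 5 were higher in both libraries and 5 lower in both. The median log2 ratio of the chosen cells over microglia was 0.41 in the wild-type library and -0.17 in the Disc1 LI/LI library. The difference was not tested, since each genotype has 1 library, and the rule selected on this contrast. Fos was above microglia in both libraries, with log2 ratios of 2.09 and 2.05, and Junb below it in both, with -0.69 and -0.19. Hspa1a lay on opposite sides, with 1.03 and -0.85, and 1 Disc1 LI/LI cell held 25% of its UMIs.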

How the results depend on the processing

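No paired analysis was possible because each genotype has 1 library, and no library could be left out. Of 2097 values for 142 named genes, 1758 lay within the gene's counting interval as reported and 303 lay outside it. A further 36, in 20 genes whose interval leaves out no change, turned direction. With genes whose interval includes no change, 56 of the 142 lay on both sides of 0 over the settings. The chosen share of cells was 3.68% and 1.06% (Disc1 WT/WT and Disc1 LI/LI) with at least 2 markers and 1.61% and 0.294% with at least 4. In Disc1 WT/WT it was 1.45% with microglia genes under 0.25% and 3.75% under 1%, and in Disc1 LI/LI 0.179% without cells holding 3 markers of another type. Genes past 2-fold higher numbered 194 of 6972 with at least 2 markers, 27 of 1630 after thinning to 1000 UMIs, 29 of 2841 with at least 50 UMIs and 194 of 12474 with at least 1, against 91 of 5593 as reported. Genes past 2-fold lower numbered 243 of 4070 with at least 4 markers, 82 of 4986 without cells holding other markers (against 119 higher of 4986, 59.2% of the calls, on 14 Disc1 LI/LI cells; 304 against 79 of 5309 on 35 cells with neutrophil markers set aside), 58 of 1630 after thinning and 252 of 2841 with at least 50 UMIs, against 413 of 5593 as reported. Genes 4-fold above microglia numbered 124 at 50 CPM and 493 at 1 UMI, and those 4-fold below 118 at 1 UMI and 8 with microglia genes under 1%.

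With at least 2 markers, log2 ratios turned to 0.042 for Plxdc2, 0.034 for Cst3, -0.11 for C1qb, -0.22 for C1qa, -0.26 for Cxcl9, -0.36 for Ccl12, -0.0054 for H2-Ab1 and -0.12 for H2-Eb1. With at least 4 they turned to 0.077 for Cst3, -0.023 for Ftl1, -0.033 for H2-DMa and -0.041 for H2-Eb1. Without cells holding other markers they turned to -0.0013 for C1qa, -0.58 for Cxcl9, 0.39 for Folr2, 0.88 for Cd209f, 0.0082 for Maf, -0.17 for Ighm, -0.030 for H2-Aa and -0.18 for H2-Eb1. Without the 5% of cells of most UMIs they turned to 0.073 for Cst3 and -0.72 for Ccl5. As means of each cell's CPM they turned to 0.087 for Cst3, -0.031 for Ftl1 and 0.19 for Malat1, and after thinning to 0.13 for Cst3, -0.29 for Axl, 0.38 for Timd4, -0.0067 for Ifi27l2a and 0.17 for Malat1. Under TMM, Cst3 turned to 0.0079. In 2 alternatives chosen after seeing the data, Cst3 turned to 0.16 and Ighm to -0.30 without cells holding other markers than those of neutrophils, and Folr2 to 0.0093, Cd209f to 1.04 and Malat1 to 0.042 in cells without a Lyve1 UMI. The causes were not tested. The 41 Disc1 LI/LI cells limit every ratio.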
